A study of Mus musculus with 36 samples.

Results

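The comparison described here set the ventricles of mice that received both MBNL vectors while repeat RNA was still being made (the MBNL1+MBNL2 cohort, 3 libraries) against the ventricles of mice in which the repeat RNA was switched off (the +/–dox cohort, 3 libraries). These 6 libraries were taken by cohort and tissue from a series of 36, and the question they address is what combined MBNL delivery left short of repeat withdrawal. Every animal carried TREDT960I (Hom)/MHCrtTA (Hem), a bitransgenic mouse called CUG960 in which doxycycline (dox) in the feed induces an RNA with interrupted CUG repeats in the context of human DMPK, and a cardiomyocyte α-myosin heavy chain promoter drives the dox-dependent activator. Both cohorts had dox from post-natal day 1. The +/–dox mice were moved to normal chow at 9 weeks of age. The MBNL1+MBNL2 mice stayed on dox and at 9 weeks received AAV9 by tail vein, with tagged human MBNL1 and MBNL2 under the human TNNT2 promoter. Left ventricles were collected at 21 weeks. Ventricles of mice kept on dox without vector (+dox), of mice never given dox (–dox) and of mice given MBNL1 or MBNL2 alone, with 3 libraries in each cohort, are used below for reference. The MBNL1+MBNL2 and +/–dox mice thus differed in repeat RNA, in dox feed, in AAV9 and in MBNL, and these cannot be told apart in this comparison.

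Expanded CUG repeats are the cause of myotonic dystrophy type 1, in which the heart is affected mainly through slowed conduction and arrhythmia. The repeat RNA folds into hairpins that bind muscleblind-like (MBNL) proteins and gather them in nuclear foci, so that the splicing, localization and decay of MBNL target RNAs are disturbed. Supplying MBNL protein replaces what the repeat has sequestered, whereas stopping transcription of the repeat removes the RNA itself along with any effect it has through other proteins.

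The 6 libraries held 57775002 to 75951567 expected counts, with 20578 to 22983 genes above 0. Levels are given below as CPM, normalised counts per 1000000 counts. Myl2 and Myl3, the ventricular myosin light chains, lay at 15600 to 19700 and 5810 to 7370 TPM (transcripts per 1000000 transcripts) in the 6 libraries, against at most 288 and 106 TPM in the matching 6 atrial libraries, and the atrial factor Bmp10 did not exceed 2.30 TPM. One library stood apart by sex. Replicate 3 of +/–dox had Xist at 15.4 TPM and Ddx3y at 0.21 TPM, while in the other 5 libraries Xist did not exceed 0.15 TPM and Ddx3y was 25.8 TPM or more. That library is also the single +/–dox library whose name begins with TC-56, as the names of the 3 MBNL1+MBNL2 libraries do, so within +/–dox sex and library name cannot be told apart. Results that rest on it are given with and without it. The sum of red blood cell markers also separated the groups. The summed level of the 9 markers found in the data was 37.6 to 549 CPM in MBNL1+MBNL2 and 985 to 1140 CPM in +/–dox. It was 157 to 470 CPM in +dox and 781 to 1640 CPM in –dox. No marker was at 0 in all 6 libraries, and none of the 8 tested markers was called (7 negative, 1 positive). Their part in the results was not tested. Fewer cells of a type and less RNA per cell cannot be told apart in these bulk libraries.

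Of 19231 genes tested with edgeR's quasi-likelihood test, 102 differed between the cohorts at an adjusted p below 0.05 and a change of at least 1.5-fold. In the MBNL1+MBNL2 ventricle 47 genes (0.244% of those tested) were higher and 55 (0.286%) were lower. The median change was 1.94-fold among the higher and 1.83-fold among the lower genes. At an adjusted p below 0.05 without a limit on size, 341 genes differed, and 2821 had an unadjusted p below 0.05. The 3 libraries of one cohort lay entirely outside those of the other for 41 of the 47 higher and 54 of the 55 lower genes, against 18.1% of all genes tested. The genes were called on these same 6 libraries, so their separation is partly fixed by how they were chosen. The number of called genes depended on single libraries. It was 269 without replicate 1 of MBNL1+MBNL2, 39 without its replicate 2, 45 without its replicate 3, 57 without replicate 1 of +/–dox, 42 without its replicate 2 and 73 without its replicate 3, the female library. In each of these 6 fits all 102 genes kept their direction, which is also partly fixed by their choice on these libraries.

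The same genes were then read in –dox against +dox, a comparison that shares no library with the first. The –dox and +dox mice differed in dox feed as well as in repeat RNA, and these cannot be told apart there. The first comparison also carries a difference in dox feed, and the part of dox feed in genes shared by both comparisons was not tested. Of all genes tested, 3.47% were higher and 4.13% were lower in –dox than in +dox. Of the 47 genes higher in MBNL1+MBNL2 than in +/–dox, 35 (74.5%) were lower in –dox than in +dox and 0 were higher. Among the 55 genes lower in MBNL1+MBNL2, 25 (45.5%) were higher in –dox than in +dox and 0 were lower. The remaining 12 higher and 30 lower genes were not called in –dox against +dox. Without replicate 3 of +/–dox these shares were 23 of 28 and 26 of 45, and without replicate 1 of MBNL1+MBNL2 they were 78 of 126 and 58 of 142, counted over genes that were also tested with all libraries. With DESeq2 they were 56 of 81 and 39 of 81.

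**Figure D1:**
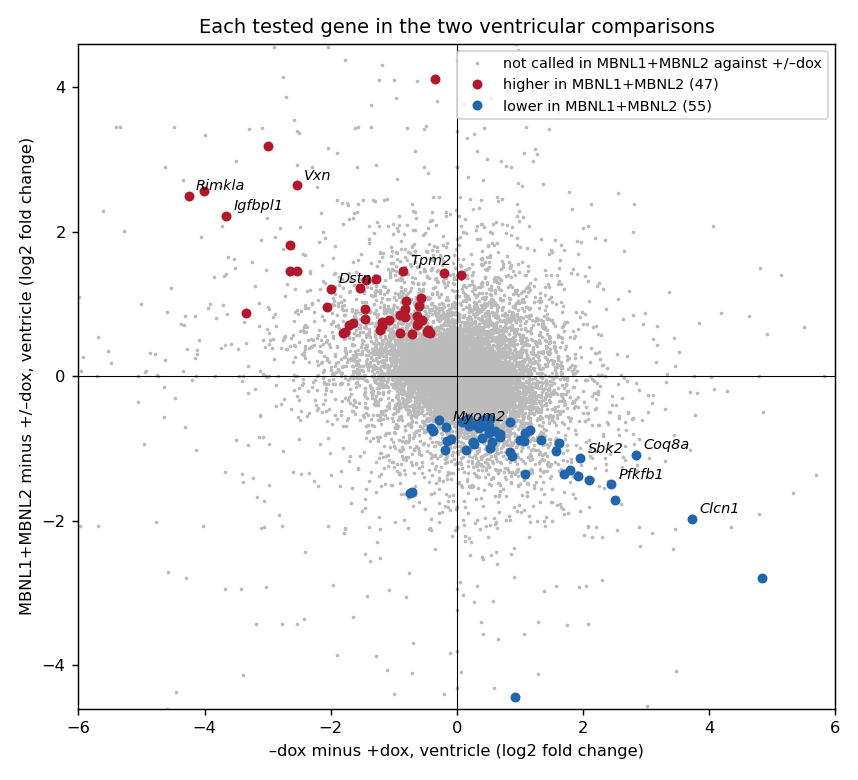
Each point is a gene tested in the ventricle, with its log2 fold change in –dox minus +dox on the horizontal axis and in MBNL1+MBNL2 minus +/–dox on the vertical axis; 74 of 19231 genes, 4 of them called, lie outside the axes. Of the 47 called genes above 0 on the vertical axis 44 lie left of 0 on the horizontal axis, and of the 55 called genes below 0 there are 46 on the right.

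The same picture held over all genes chosen by –dox against +dox alone, whether or not they were called between MBNL1+MBNL2 and +/–dox. The 667 genes higher in –dox than in +dox (median difference 0.86 on the log2 scale) had a median of -0.24 in MBNL1+MBNL2 minus +/–dox, and 82.3% of them were negative, against 51.9% of all genes. The 794 genes lower in –dox (median -1.10) had a median of 0.25, and 77.3% were positive, against 47.9% of all genes, whose median was -0.01. The 3 treated hearts were not alike. In replicate 1 of MBNL1+MBNL2 the medians against the mean of the +/–dox libraries were -0.10 and 0.08, whereas in replicate 2 they were -0.23 and 0.30 and in replicate 3 they were -0.39 and 0.31. Each +/–dox library, set against the other two, gave medians between -0.08 and 0.07. With replicate 1 of MBNL1+MBNL2 left out, the fitted medians were -0.32 and 0.31, and without replicate 3 of +/–dox they were -0.27 and 0.30. They were smaller, -0.16 and 0.2, without replicate 3 of MBNL1+MBNL2, and without its replicate 2 they were -0.26 and 0.21. With only the TC-56 library of +/–dox they were -0.19 and 0.2. Replicate 1 was also the MBNL1+MBNL2 library nearest to +/–dox for 36 of the 47 higher and 38 of the 55 lower genes.

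**Figure D2:**
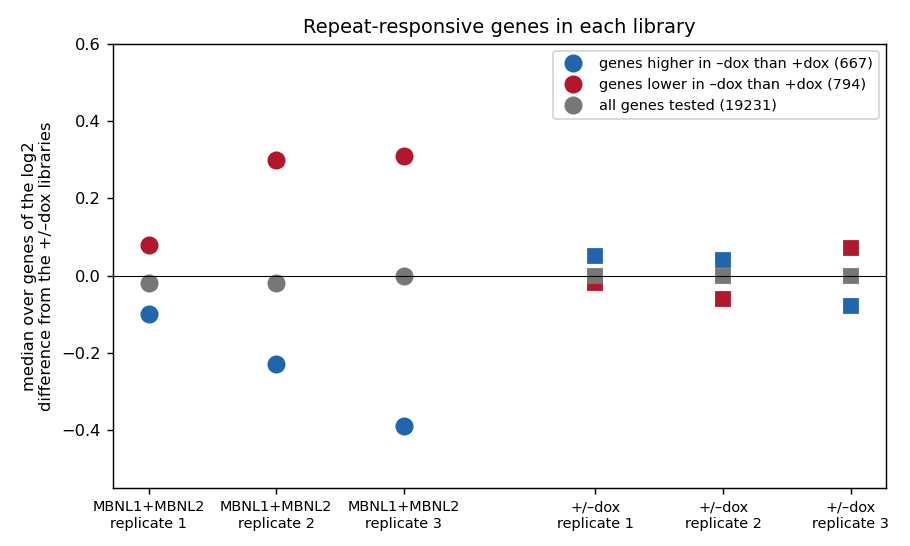
The vertical axis is the median over genes of the log2 difference from +/–dox for each library named below it, against the mean of all 3 +/–dox libraries (circles) or of the other two (squares). Genes higher in –dox than in +dox lie below 0 and genes lower in –dox lie above 0 in the 3 MBNL1+MBNL2 libraries, with the smallest distances (-0.10 and 0.08) in replicate 1.

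Positions are those of GENCODE annotation on mm10. Whether reads were counted by strand is not given in the sources used here, so that genes overlapping another on the opposite strand (Vxn, Rimkla, Padi2, Nudt5, Fstl3, Aif1l, Clcn1, Pfkfb1, Gm15543, Sbk2, Cyb5r2, Coq8a, Cacna1d and Myom2 among those named) may share reads with it. The genes named first are the 12 largest differences in each direction among called genes with a mean of at least 100 normalised counts and no overlap between the cohorts, so that their separation is part of how they were chosen. Vxn, which encodes vexin, known from neural development, had the smallest adjusted p (ENSMUSG00000067879.3, mm10 chr1:9601199-9627143). It lay at 23.3, 25.8 and 33.5 CPM in MBNL1+MBNL2 and at 5.07, 3.91 and 4.21 CPM in +/–dox, a 6.25-fold difference (log2 2.64 ± 0.13 SE, adjusted p = 1.7e-15, edgeR). The 3 +dox libraries were at 26.6, 25.7 and 28.3 CPM and the 3 –dox libraries at 5.61, 4.06 and 4.24 CPM, so that the treated hearts lay among the hearts with repeat and no vector. With MBNL1 or MBNL2 alone Vxn was at 26.6 ± 0.836 and 25.3 ± 0.575 CPM (SD, n = 3).

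Several other genes higher in +dox than in –dox lay between +dox and +/–dox. Rimkla, an enzyme that joins glutamate to N-acetylaspartate, was at 17.2, 17.9 and 22 CPM in +dox, at 4.26, 9.34 and 5.77 CPM in MBNL1+MBNL2 and at 1.05, 0.926 and 1.43 CPM in +/–dox (log2 2.5 ± 0.25 SE, adjusted p = 3.8e-07). The treated libraries fell between the other cohorts without touching either. Igfbpl1, a member of the insulin-like growth factor binding protein family, was at 3.07, 3.47 and 4.75 CPM against 0.835, 0.624 and 0.942 CPM in +/–dox, a 4.67-fold difference (adjusted p = 9.01e-06). Its +dox libraries were higher again, at 7.46 to 9.74 CPM. Ccne1, cyclin E1, which drives entry into DNA synthesis, was at 2.79, 4.77 and 3.85 CPM against 1.56, 1.47 and 1.12 CPM, a 2.74-fold difference (adjusted p = 0.00241). Placed between +dox (0%) and +/–dox (100%) by their fitted log2 levels, Rimkla stood at 38.4%, Igfbpl1 at 34.2% and Ccne1 at 44.8%.

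Nudt5, which hydrolyses ADP-ribose and related nucleotides, was at 21.2, 25.6 and 26.5 CPM in MBNL1+MBNL2 and at 9.23, 9.70 and 12.3 CPM in +/–dox (2.35-fold, log2 1.23 ± 0.10 SE, adjusted p = 3.12e-09). With +dox at 28.8 to 30.3 CPM, its position was 18.6%, and its difference from +dox did not pass the test (adjusted p = 0.0748). Dstn, destrin, which severs and depolymerises actin filaments, was at 121, 212 and 233 CPM against 78.1, 81.6 and 84.0 CPM (2.32-fold, adjusted p = 9.01e-06), and +dox lay at 346 to 364 CPM. Here the spread within the treated cohort was wide, replicate 1 being closer to +/–dox than to the other treated hearts. Padi2, which converts arginine to citrulline in proteins, was at 14.9, 13.7 and 17.3 CPM against 7.15, 5.90 and 3.61 CPM (adjusted p = 0.0139), and +dox at 13.7 to 19.0 CPM covered the treated values. The Padi2 call was lost without replicate 3 of MBNL1+MBNL2 or replicate 2 or 3 of +/–dox (adjusted p up to 0.0908).

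Tpm2, the β-tropomyosin of the thin filament, was at 91.9, 102 and 85.4 CPM in MBNL1+MBNL2 and at 32.0, 32.9 and 36.2 CPM in +/–dox (2.76-fold, adjusted p = 0.00153). Its treated libraries lay above those of +dox too, which were at 79.6, 75.1 and 27.5 CPM, but this difference did not pass the test (log2 0.61, adjusted p = 0.115, edgeR). Tpm2 was at 66.0 ± 7.07 CPM with MBNL1 alone and at 72.1 ± 22.5 CPM with MBNL2 alone. Fstl3, a secreted binder of activin and myostatin, was at 14.8, 21.9 and 19.8 CPM against 9.02, 7.96 and 9.74 CPM (adjusted p = 0.032). This call did not hold without replicate 2 or 3 of MBNL1+MBNL2 or without any 1 of the +/–dox libraries (adjusted p up to 0.167). Aif1l, an actin-bundling protein, was at 2.95, 7.37 and 5.56 CPM against 2.55, 2.25 and 2.87 CPM (adjusted p = 0.00698), and was not called without replicate 2 of either cohort (adjusted p up to 0.0943).

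The last pair among the 12 higher genes cannot be read as 2 measurements. Gm10240 and Gm13370, processed pseudogenes, had the same expected counts as each other in all libraries, namely 309, 66 and 1074 in MBNL1+MBNL2 and 0 in each +/–dox library, at least 151-fold higher against a floor of 3 counts in each +/–dox library. Near-identical copies share reads in such counts. The –dox libraries were at 5.34 to 12.1 CPM for both, within the range of MBNL1+MBNL2 (1.21 to 16.2 CPM) and 6 of the 36 libraries of the series, the 3 of +/–dox among them, held 0 counts. Without replicate 3 of MBNL1+MBNL2 the bound was 64.6-fold and the adjusted p was 0.0553.

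Genes lower in MBNL1+MBNL2 were led by a chloride channel. Clcn1 (ENSMUSG00000029862.15, chr6:42286685-42315756), the muscle chloride channel whose loss through missplicing causes myotonia in skeletal muscle, was at 0.771, 0.495 and 0.484 CPM against 1.96, 2.65 and 2.26 CPM in +/–dox (3.91-fold lower, log2 -1.97 ± 0.25 SE, adjusted p = 1.43e-05). The +dox libraries held 0.169 to 0.273 CPM and the –dox libraries 2.58 to 3.52 CPM, so its treated level stood 41.8% of the way from +dox to +/–dox. These are low levels for a heart gene. Scn10a, a sodium channel best known from sensory neurons, was at 1.59, 0.752 and 0.877 CPM against 2.19, 2.68 and 3.80 CPM (adjusted p = 0.0171), and its +dox libraries at 0.587 to 1.60 CPM covered the treated values. Its call was lost without replicate 2 or 3 of MBNL1+MBNL2 or of +/–dox (adjusted p up to 0.14).

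Coq8a (ENSMUSG00000026489.13, chr1:180165238-180199602), an atypical kinase needed for coenzyme Q synthesis in mitochondria, was the most abundant of these lower genes. It was at 460, 274 and 270 CPM in MBNL1+MBNL2, against 745, 727 and 655 CPM in +/–dox (2.12-fold lower, log2 -1.08 ± 0.18 SE, adjusted p = 0.00111), 112, 82.3 and 65.2 CPM in +dox and 585 to 669 CPM in –dox. MBNL1 alone gave 319 ± 55.1 CPM and MBNL2 alone 227 ± 38.4 CPM. The position of Coq8a was 64.3%, and replicate 1 of MBNL1+MBNL2 was nearest to +/–dox. Sbk2, a kinase of heart muscle, was at 9.01, 5.83 and 6.35 CPM against 18.8, 14.1 and 13.7 CPM (2.20-fold lower, adjusted p = 0.00401), with a position of 48.0%.

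Pfkfb1, which sets the level of fructose 2,6-bisphosphate and so the rate of glycolysis, was at 4.25, 3.58 and 1.69 CPM against 12.2, 9.96 and 4.58 CPM (adjusted p = 0.0281), and the call was lost without replicate 2 or 3 of MBNL1+MBNL2 or replicate 1 or 2 of +/–dox (adjusted p up to 0.21). The female +/–dox library was the lowest of its cohort for Pfkfb1, just above the highest treated library.

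Among the other genes lower in MBNL1+MBNL2, Cyb5r2, a cytochrome b5 reductase, was at 2.92 to 4.5 CPM against 7.68 to 8.58 CPM (2.14-fold lower, adjusted p = 0.00204). The long non-coding RNAs Gm36827 and Gm15543 were at 5.25 to 8.31 against 16.3 to 18.8 CPM and at 1.38 to 1.94 against 2.61 to 6.11 CPM (adjusted p = 0.00246 and 0.00204). Each of these 3 was at its +dox level or beyond it, with positions of -20.6%, 3.03% and -47.2%. Prlr, the prolactin receptor, was at 3.04 to 3.77 against 7.18 to 10.3 CPM (adjusted p = 0.0298). Nacad, related to a subunit of the nascent polypeptide-associated complex, was at 1.70 to 2.27 against 3.29 to 4.99 CPM (adjusted p = 0.0119). Tbc1d10c, a regulator of Rab and Ras signalling known from lymphocytes, was at 1.32 to 2.98 against 4.07 to 6.04 CPM (adjusted p = 0.0178). Of 17 T, NK and B cell markers tested, 15 were negative (median -0.73, from -0.93 to -0.43 with single libraries left out) and none was called. Their sums of 8.89 to 11.7 CPM in MBNL1+MBNL2 and 8.9 to 13.5 CPM in +/–dox overlapped, and their part in the Tbc1d10c difference was not tested. Cd247, the CD3 zeta chain of T and NK cells, is on none of the marker lists and was chosen after its values were seen. It was at 0.702, 0.312 and 0.453 CPM against 1.79, 1.13 and 1.59 CPM (3.07-fold lower, adjusted p = 0.0476), and overlaps other genes on both strands. Prlr was not called without replicate 2 or 3 of MBNL1+MBNL2 or replicate 1 or 2 of +/–dox (adjusted p up to 0.158), Nacad without replicate 2 of MBNL1+MBNL2 or replicate 3 of +/–dox (up to 0.0844), and Tbc1d10c without replicate 2 or 3 of MBNL1+MBNL2 or replicate 3 of +/–dox (up to 0.166).

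**Figure D3:**
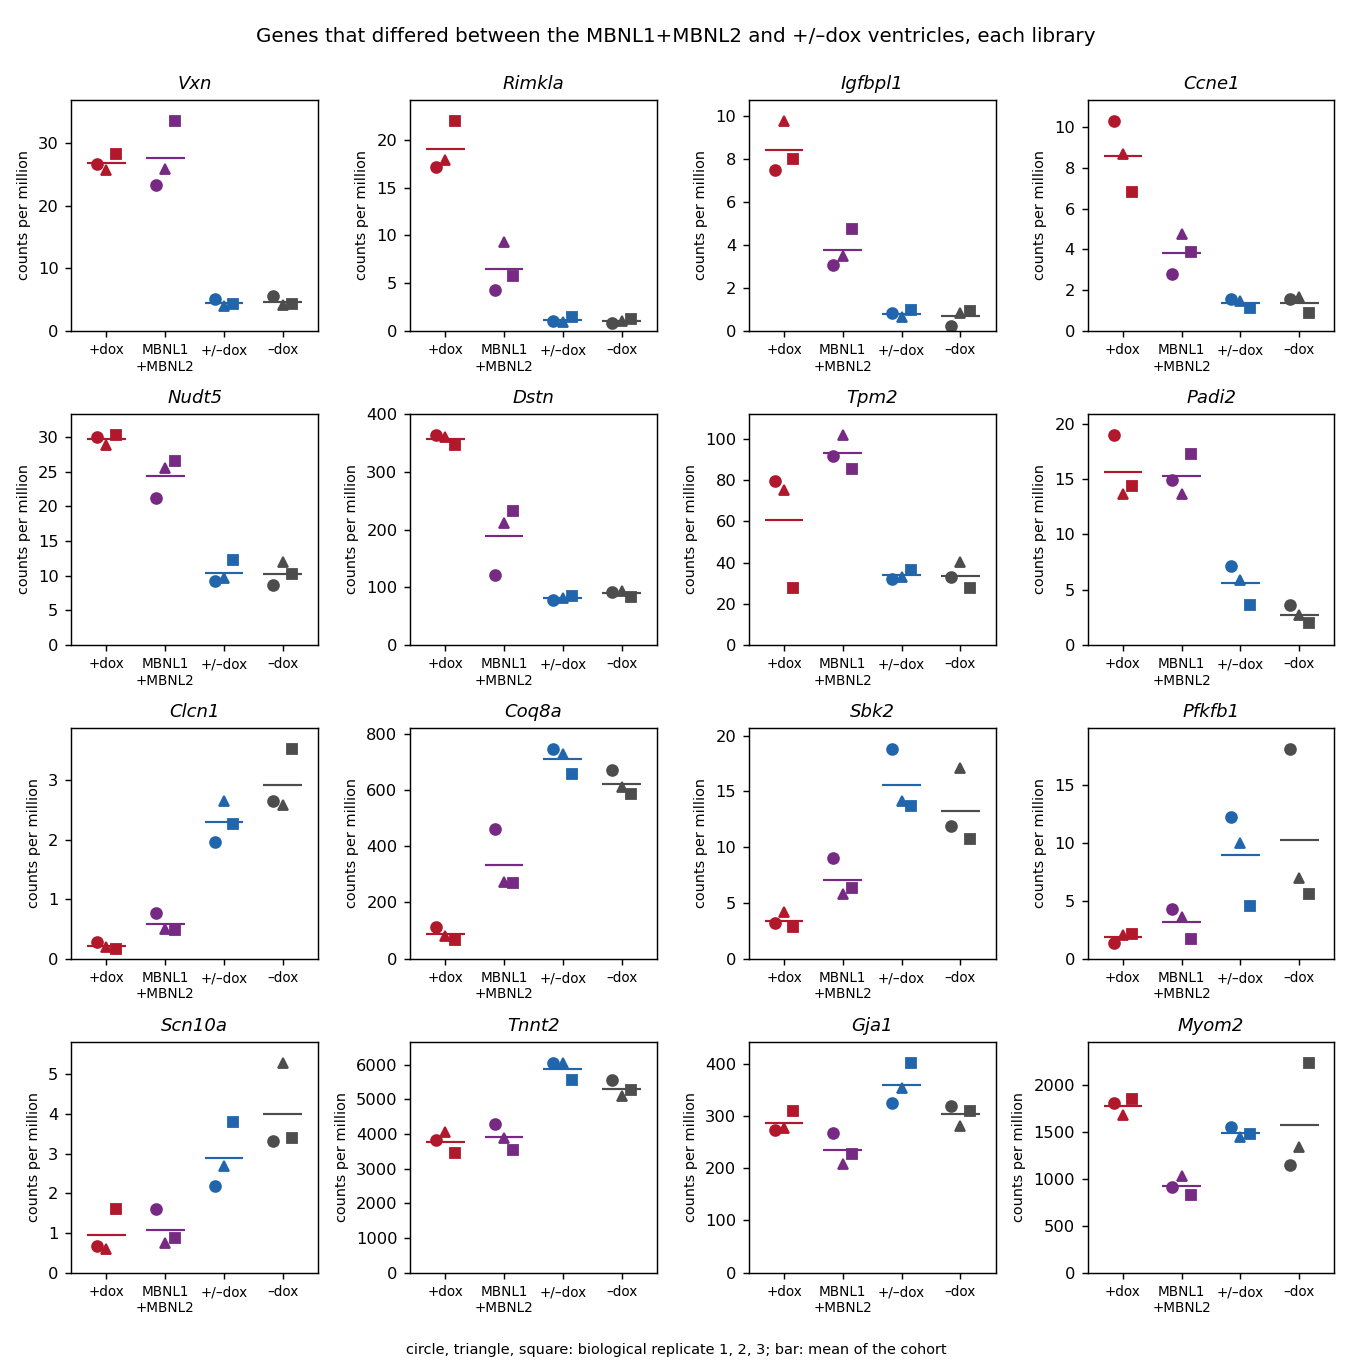
Levels in CPM (vertical axes, each from 0) of 16 called genes in the 3 libraries of each ventricular cohort, with bars at the cohort means. The treated hearts sit at the +dox level for Vxn (23.3 to 33.5 CPM) and Tnnt2 (3530 to 4280 CPM), between +dox and +/–dox for Rimkla and Coq8a, and below both for Gja1 and Myom2. For Gja1 the difference from +dox did not pass the test.

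Among genes of conduction and excitability that were called, Gja1 (ENSMUSG00000050953.10, chr10:56377330-56402513) was lower. It encodes a connexin, the main gap junction protein between working ventricular myocytes. Gja1 was at 267, 208 and 226 CPM in MBNL1+MBNL2 against 325, 353 and 401 CPM in +/–dox (1.54-fold lower, log2 -0.63 ± 0.11 SE, adjusted p = 0.00226). It did not differ detectably between –dox and +dox (log2 0.08, adjusted p = 0.678), whose libraries lay at 281 to 318 and 273 to 310 CPM. The treated hearts were thus the lowest of these 4 cohorts, but their difference from +dox did not pass the test (log2 -0.3, adjusted p = 0.103, edgeR). With MBNL1 or MBNL2 alone Gja1 was at 286 ± 54.3 and 248 ± 14.1 CPM. The change slipped below 1.5-fold without replicate 2 of MBNL1+MBNL2 or replicate 3 of +/–dox (smallest size, log2 -0.54), with an adjusted p of at most 0.0349. Of 19 gap junction and intercalated disc genes, 15 were negative (51.9% of all genes were) and Gja1 was the single one called, where 0.286% of all genes were called lower.

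Kcnip2, the KChIP2 subunit needed for the transient outward potassium current, was at 55.9, 45.7 and 32.4 CPM against 74.5, 72.9 and 76.2 CPM (1.67-fold lower, adjusted p = 0.0355). The cohorts did not overlap, but with any 1 library other than replicate 1 of MBNL1+MBNL2 left out the call was lost (adjusted p up to 0.237). Kcnip2 was called among 27 potassium and pacemaker channel genes, of which 19 were negative, with a median of -0.22. Over all genes 0.286% were called lower and 51.9% were negative. Cacna1d, the CaV1.3 calcium channel of atrial and pacemaker cells, was higher, at 5.75, 6.84 and 7.44 CPM against 5.54, 3.69 and 3.57 CPM (1.56-fold, adjusted p = 0.014). Replicate 1 of +/–dox lay close under the treated values, and Cacna1d was not called without replicate 2 or 3 of either cohort (adjusted p up to 0.132). With Scn10a it made up the 2 calls among 17 voltage-gated sodium and calcium channel genes, whose median was 0.05, where 0.244% of all genes were called higher and 0.286% lower.

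Ppp1r1a, an inhibitor of protein phosphatase 1 that acts downstream of adrenergic receptors, was at 2.55, 4.09 and 4.88 CPM against 2.32, 2.14 and 2.58 CPM. Its adjusted p of 0.0497 was just under the limit, replicate 1 of MBNL1+MBNL2 lay within the +/–dox values, and leaving out any 1 library but that one ended the call (adjusted p up to 0.35). Rbfox1, a muscle splicing regulator, was at 19.9, 10.2 and 14.5 CPM against 28.3, 27.5 and 20.9 CPM (1.72-fold lower, adjusted p = 0.0277), with the call lost without replicate 2 or 3 of MBNL1+MBNL2 or replicate 1 or 2 of +/–dox (adjusted p up to 0.194). Replicate 1 of MBNL1+MBNL2 and the female +/–dox library were 1 CPM apart.

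Of 29 sarcomere and Z-disc genes 2 were called, both lower, where 0.286% of all genes were called lower. Tnnt2 (ENSMUSG00000026414.13, chr1:135836354-135852260), cardiac troponin T of the thin filament, was at 4280, 3890 and 3530 CPM in MBNL1+MBNL2 against 6040, 6050 and 5550 CPM in +/–dox (log2 -0.59 ± 0.09 SE, adjusted p = 0.000395). It lay at 3460 to 4070 CPM in +dox and at 5100 to 5550 CPM in –dox, and was at 4220 ± 688 CPM with MBNL1 alone and 3820 ± 53.4 CPM with MBNL2 alone. Its 1.51-fold difference sits at the limit, so that the call was lost without replicate 3 of MBNL1+MBNL2 or replicate 1 or 2 of +/–dox (smallest log2 -0.53) while the adjusted p stayed at 0.00907 or below. The Tnnt2 call was also lost with DESeq2, other size factors, a term for library name, only the 18 ventricular libraries and only the 6 libraries. Over all settings its log2 difference ran from -0.67 to -0.5. Myom2, M-protein of the M-band, was at 913, 1030 and 826 CPM against 1550, 1440 and 1480 CPM (1.62-fold lower, adjusted p = 0.0249). Its +dox libraries held 1680 to 1850 CPM, so Myom2 was lowest in the treated hearts, and MBNL1 and MBNL2 alone gave 1200 ± 105 and 1210 ± 174 CPM. The Myom2 call was lost with any 1 library but replicate 1 of MBNL1+MBNL2 left out (adjusted p up to 0.174).

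The reference promoters of Tnnt2 and Coq8a are printed because Tnnt2 is the mouse counterpart of the gene whose promoter drives the vectors and because both genes stayed short of +/–dox. They are RefSeq sequences of build GRCm38.p6, from 250 bases before to 50 bases after an annotated start, on the gene's strand. Capitals mark the M-CAT motif, CATTCC or GGAATG on the other strand, a binding motif of TEAD factors in muscle promoters. Each gene has 2 annotated windows, and the one that holds the motif is printed. For Tnnt2 it is chr1:135836084-135836383 (+) and for Coq8a chr1:180193436-180193735 (–). The other windows, chr1:135836739-135837038 and chr1:180195971-180196270, hold 0 matches.
Tnnt2: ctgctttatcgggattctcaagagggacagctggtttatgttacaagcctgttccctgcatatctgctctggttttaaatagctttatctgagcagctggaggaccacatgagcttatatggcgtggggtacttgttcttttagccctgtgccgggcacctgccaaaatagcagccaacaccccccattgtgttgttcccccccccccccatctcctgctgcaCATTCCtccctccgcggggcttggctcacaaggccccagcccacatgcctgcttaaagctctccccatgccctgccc
Coq8a: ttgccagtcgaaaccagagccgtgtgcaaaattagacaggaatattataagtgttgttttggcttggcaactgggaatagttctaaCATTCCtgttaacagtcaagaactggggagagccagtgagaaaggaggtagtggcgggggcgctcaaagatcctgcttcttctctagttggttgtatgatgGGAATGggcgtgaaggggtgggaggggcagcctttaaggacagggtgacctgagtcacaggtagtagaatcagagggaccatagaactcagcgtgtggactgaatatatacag
The motif was present in 15 of the 96 promoter windows of the 76 called genes with an entry (15.6%) and in 14.7% of all 32851 windows of that length, so the called genes held it about as often as promoters in general.

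Genes that the study followed by RT-qPCR lay mostly at +/–dox or between +dox and +/–dox, and none of the 7 described here was called. Ryr2, the calcium release channel of the sarcoplasmic reticulum, was at 1580, 1560 and 1670 CPM against 2440, 2370 and 2180 CPM in +/–dox and 1150, 1170 and 1060 CPM in +dox. Its adjusted p was 2.02e-05 but the 1.45-fold difference stayed under the size limit, and its position was 48.5%. Asph, whose products include junctin of the calcium release unit, was at 324, 392 and 437 CPM against 267, 259 and 274 CPM (1.44-fold higher, adjusted p = 0.000712), 39.1% of the way. For these 2 genes the treated libraries overlapped neither +dox nor +/–dox.

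Ckmt2, the mitochondrial creatine kinase of muscle, was at 1670, 1400 and 1320 CPM against 1920, 1940 and 1900 CPM (adjusted p = 0.0646), with +dox at 560 to 595 CPM. Cdnf, a neurotrophic factor of the endoplasmic reticulum, was at 43.4, 23.4 and 24.3 CPM against 36.5, 37.4 and 32.4 CPM (adjusted p = 0.693), replicate 1 lying above and the other treated libraries below the +/–dox values. Its +dox libraries were at 2.51 to 2.99 CPM, and MBNL2 alone gave 8.66 ± 2.47 CPM beside 27.9 ± 8.20 CPM with MBNL1 alone. Kcna4, the Kv1.4 potassium channel, was at 1.83, 1.89 and 2.68 CPM against 1.72, 1.47 and 1.71 CPM (adjusted p = 0.323), with +dox at 7.46 to 9.71 CPM. The positions of Ckmt2, Cdnf and Kcna4 were 77.1%, 94.0% and 83.8%. Hcn4, the pacemaker channel, varied too widely within cohorts to place, at 10 to 28.8 against 9.31 to 18.5 CPM (adjusted p = 0.809), and Gja5, a connexin of the conduction system, was at 4.44 to 5.37 against 4.27 to 7.29 CPM (adjusted p = 0.859).

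The genes of the MBNL family were measured by their mouse symbols. The vectors carry human coding sequence, and how many of its reads were counted under the mouse genes was not tested. Mbnl1 was at 270, 215 and 227 CPM in MBNL1+MBNL2 against 175, 178 and 176 CPM in +/–dox (1.35-fold higher, adjusted p = 0.00758), with +dox at 206 to 224 CPM. Mbnl2 was at 395, 379 and 374 CPM against 264, 263 and 249 CPM (1.48-fold higher, adjusted p = 0.000571), with +dox at 352 to 375 CPM. Neither passed the size limit. Mbnl3 was at or below 0.477 CPM in the 6 libraries (adjusted p = 0.89). The mouse Dmpk gene was at 532 to 696 CPM against 580 to 600 CPM (adjusted p = 0.911). Of 26 splicing regulators and related genes Rbfox1 was the single one called, where 0.286% of all genes were called lower.

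**Figure D4:**
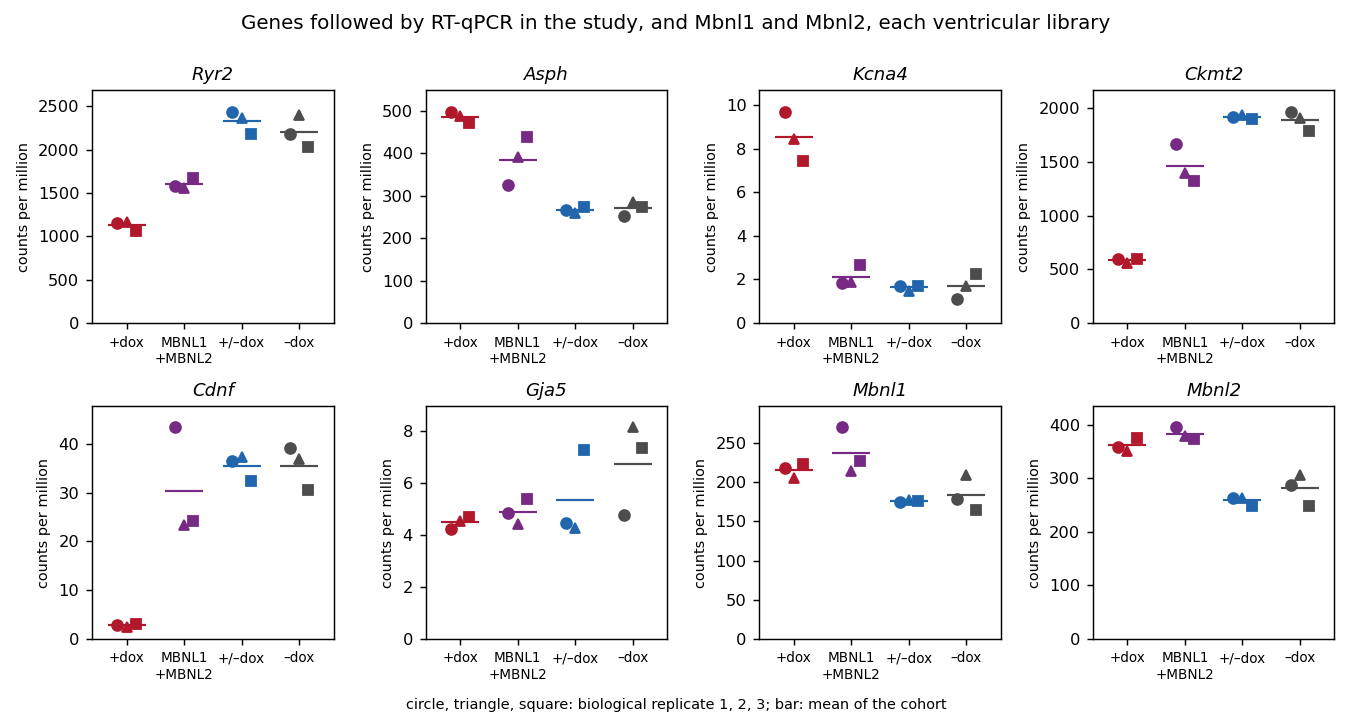
Levels in CPM (vertical axes, each from 0) of 6 genes followed by RT-qPCR and of Mbnl1 and Mbnl2 in the 3 libraries of each ventricular cohort, with bars at the cohort means. Ryr2 in the treated hearts (1560 to 1670 CPM) lies between +dox and +/–dox, Kcna4 (1.83 to 2.68 CPM) lies next to +/–dox, and Mbnl2 (374 to 395 CPM) lies next to +dox.

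Within functional lists the differences were small and often of one sign. Genes of the respiratory chain encoded in the nucleus were negative in 36 of 38 cases, with a median of -0.19 on the log2 scale against -0.01 over all genes. All 3 treated libraries lay below all 3 +/–dox libraries for 26 of the 38 (68.4%), against 10.4% of all genes tested, and the median over the list in each treated library was -0.15, -0.20 and -0.24 against the +/–dox mean. None reached 1.5-fold, but 5 of the 38 had an adjusted p below 0.05, as did 341 of all 19231 genes tested. Sdha, a subunit of complex II, was at 1170, 1080 and 958 CPM against 1420, 1410 and 1320 CPM (adjusted p = 0.0116). Cyc1, of complex III, was at 551 to 674 against 752 to 764 CPM (adjusted p = 0.0225), and Atp5b, of ATP synthase, at 3720 to 4630 against 5030 to 5080 CPM (adjusted p = 0.0251). In –dox against +dox the list had a median of 0.15 and 0 called genes. A share above the 10.4% of all genes, with all treated libraries below all +/–dox libraries, was not limited to this list. In the other functional lists it ran from 0.0% (as for fibrosis and matrix genes) to 45.5% (glucose and glycogen genes). It was 37.9% for calcium handling genes and for sarcomere and Z-disc genes.

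Glucose and glycogen genes were negative in 27 of 33 cases (median -0.16), with Pfkfb1 called and 5 at an adjusted p below 0.05. Over all genes tested 51.9% were negative, 0.286% were called lower and 341 of 19231 had an adjusted p below 0.05. Fatty acid and ketone genes were negative in 31 of 36 cases with the same median. Only 1 of them (2.8%) had all treated libraries below all +/–dox libraries, against 10.4% of all genes tested. In –dox against +dox that list had a median of 0.48 with 11 of its 36 genes higher (3.47% of all genes were), and against the TC-56 library of +/–dox alone the median in MBNL1+MBNL2 minus +/–dox was 0.06, of the opposite sign. Among calcium handling genes 20 of 29 were negative, and besides Ryr2 and Asph the calcium pump Atp2a2 passed the adjusted p (12700, 12500 and 11300 against 16400, 16900 and 15000 CPM, adjusted p = 0.00891) without reaching 1.5-fold. Herpud1, of the endoplasmic reticulum stress response, was at 193, 175 and 145 CPM against 242, 272 and 210 CPM (adjusted p = 0.00445) on a list whose other 18 genes gave no adjusted p below 0.05.

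The medians of immune lists depended on the libraries compared. Interferon-induced genes were positive in 44 of 48 cases with a median of 0.32, where 47.9% of all genes were positive. Of the 48, 19 were lower in –dox than in +dox (median -0.99), against 4.13% of all genes. None was called between MBNL1+MBNL2 and +/–dox, and against the TC-56 library of +/–dox alone the median was -0.12. Antigen presentation genes had a median of -0.04 that ran from -0.32 to 0.53 as single libraries were left out. The median was 0.63 in replicate 1 and -0.66 in replicate 3 of MBNL1+MBNL2, and 0.74 in the female +/–dox library against -0.12 and -0.55 in the other two. The interferon medians were 0.41, 0.12 and 0.12 in the treated libraries and -0.16, -0.24 and 0.43 in those of +/–dox, so that both lists overlapped between the cohorts. Cell cycle genes, 14 of 29 of which were lower in –dox than in +dox (4.13% of all genes were), had a median of 0.11 with none called, and of -0.11 against the TC-56 library alone. Fibrosis and matrix genes were positive in 28 of 34 cases (median 0.18) with none called. Postn, a matricellular protein of activated fibroblasts, was at 45.9, 77.9 and 139 CPM against 40.8, 40.8 and 46.3 CPM (adjusted p = 0.24), the spread lying within the treated cohort.

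**Figure D5:**
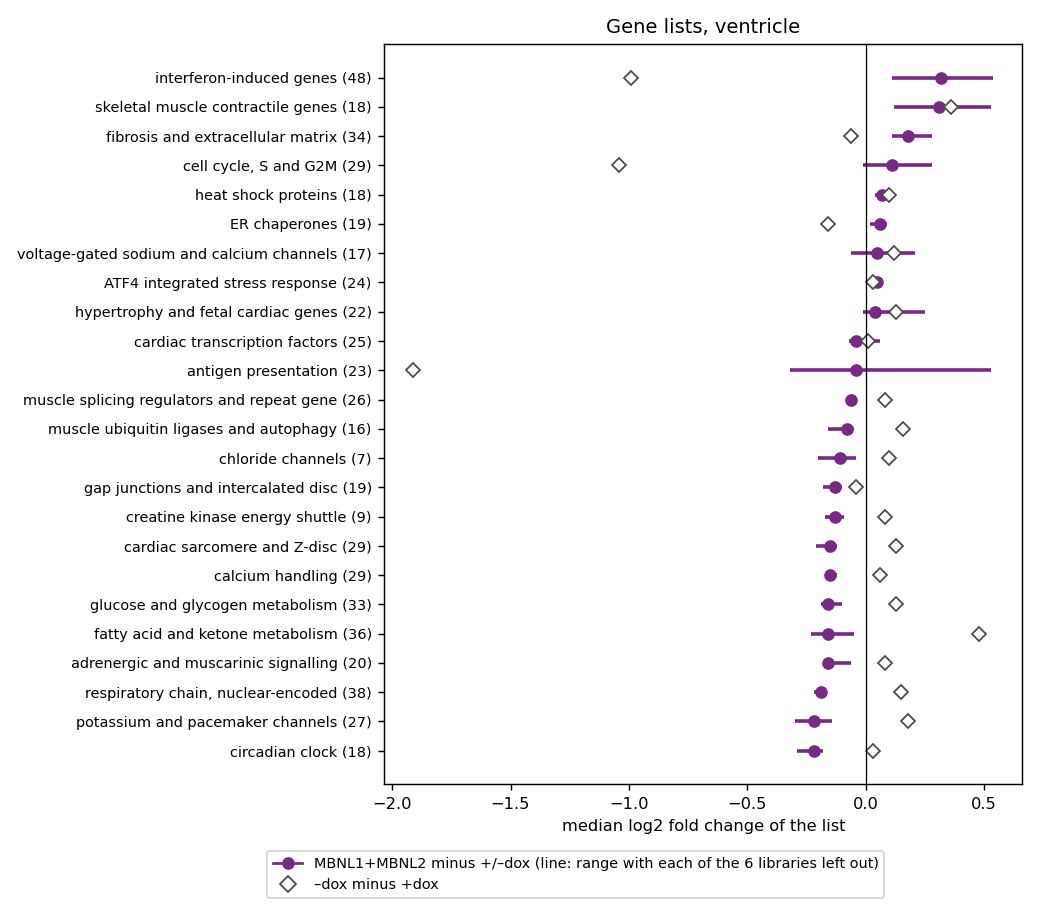
The horizontal axis is the median log2 fold change over the tested genes of each list (number in brackets), as filled circles for MBNL1+MBNL2 minus +/–dox with lines for the range when each of the 6 libraries is left out, and as open diamonds for –dox minus +dox. The respiratory chain list keeps to a narrow range near -0.19, while antigen presentation runs from -0.32 to 0.53.

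Markers of other cell types were compared by their summed levels. Macrophage markers summed to 320 to 444 CPM in MBNL1+MBNL2 and 285 to 348 CPM in +/–dox, and fibroblast markers to 3080 to 3830 and 3370 to 3550 CPM, both with overlap. Endothelial markers summed to 1330 to 1420 against 1470 to 1590 CPM, and smooth muscle and pericyte markers to 1010 to 1220 against 1240 to 1340 CPM. Neuronal and glial markers, with Th and Chat at 0 in the 6 libraries, summed to 9.37 to 11.7 against 13.6 to 15.7 CPM. These 3 sums did not overlap between the cohorts. In +dox and –dox the endothelial sums were 1210 to 1280 and 1630 to 1840 CPM. The smooth muscle and pericyte sums there were 959 to 1140 and 1290 to 1510 CPM. The neuronal and glial sums were 7.52 to 10.7 CPM in +dox and 10.5 to 15.9 CPM in –dox, the latter overlapping MBNL1+MBNL2. No single marker on the lists of other cell types was called, and their part in the differences above was not tested.

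The –dox ventricles, from mice never given dox, were a further reference, which shares the MBNL1+MBNL2 libraries but not the others. With edgeR 222 of 19231 genes tested differed between MBNL1+MBNL2 and –dox, 117 higher and 105 lower. Of the 47 genes higher and the 55 lower than in +/–dox, 29 and 31 were called against –dox as well, and Cd247 was not (log2 -0.67, adjusted p = 0.488). Because both comparisons use the same MBNL1+MBNL2 libraries, part of this recurrence follows from the design, and how large a part was not tested. Vxn differed by 2.57 on the log2 scale (2.64 against +/–dox), Nudt5 by 1.25 (1.23) and Coq8a by -0.89 (-1.08). For Gja1 the difference was smaller, -0.37 with an adjusted p of 0.0604 (-0.63 against +/–dox), and for Gm10240 it was -0.09 with an adjusted p of 0.98.

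In the atria, sequenced as separate libraries of the same cohorts (per the study's sample list, from the same animals), MBNL1+MBNL2 was higher than +/–dox for 0.842% and lower for 0.863% of genes tested. Of the 47 genes higher in the ventricle 20 (42.6%) were also called higher in the atria and 46 had the same sign, and of the 55 lower genes 16 (29.1%) were called lower and 50 had the same sign. Vxn differed by 3.35 and Rimkla by 2.36 on the log2 scale there. The test of the tissue difference itself found 15 genes in all at an adjusted p below 0.05. That test took the libraries as independent. With the animal as a block, taking the replicate number within a cohort as the animal, 91 genes had an adjusted p below 0.05, 14 of the 15 among them, and 41 of the 91 also differed by at least 1.5-fold. The 15 include Aif1l and Eno1b of the ventricular calls, and among the genes followed by RT-qPCR Gja5, whose atrial difference was -2.21 beside -0.13 in the ventricle.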

How the data were processed

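RNA was sequenced from left ventricles and atria of 12 groups with 3 labelled biological replicates each. Per the labels and methods, libraries were stranded and made from 250 ng of total RNA, and the authors aligned reads with STAR 2.7.10b to mm10 and deposited RSEM 1.3.1 expected counts and TPM per gene. The deposited expected counts were rounded and tested with edgeR 4.0.16 (R 4.3.3): TMM normalisation, low-count filter, 12 group means over all 36 libraries, robust quasi-likelihood F-test and Benjamini-Hochberg adjustment. A gene was called at an adjusted p below 0.05 and a change of at least 1.5-fold. TPM served for tissue and sex checks. The 6 libraries compared held 57775002 to 75951567 counts and differed by more than counting noise. A position is the place of the fitted log2 level of MBNL1+MBNL2 between +dox (0) and +/–dox (100). Named genes were the 12 largest called differences in each direction with a mean of at least 100 normalised counts and no overlap, called genes on the lists, genes followed by RT-qPCR, the Mbnl genes and Dmpk, and the lowest p on lists without a call. The comparison and the lists were chosen with earlier results of these data known. Alternatives were DESeq2 1.42.0, voom in limma 3.58.1, other size factors, filters, fold limits and sets of libraries, a replicate block, and a term for library name. The test was checked on simulated counts. Atria and ventricles came from the same animals. The labels give replicate numbers and not animals, and deviations of same-numbered atrial and ventricular libraries correlated at 0.079 to 0.276, each ventricular library most with its own number. Ensembl identifiers and positions came from GENCODE M21, which held 96.4% of the deposited symbols (the authors used M25), and promoters from RefSeq. The 36 libraries include no cohort given a control vector. Some genes that met the rule are not reported here.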

Additional observations from a re-analysis of the deposited data

Results flagged for a closer look

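Among the genes named here 3 had a ventricular difference between MBNL1+MBNL2 and +/–dox that differed from the atrial one in edgeR's test of the interaction. Gja5 was higher by 2.09 on the log2 scale in this double difference (adjusted p = 0.00203), because its atrial libraries lay at 10 to 12.3 CPM in MBNL1+MBNL2 and 35.8 to 66.5 CPM in +/–dox while the ventricular ones overlapped. For Aif1l the double difference was 1.37 (adjusted p = 0.0451), with atrial libraries at 24.1 to 28.8 against 32.2 to 34.6 CPM, the opposite order to the ventricle. Eno1b, an enolase gene near-identical to Eno1 and so uncertain in its share of reads, gave -0.67 (adjusted p = 0.0451). It fell outside the rule for named genes and was chosen after its values were seen. With the animal as a block the adjusted p was 0.00107 for Gja5, 0.0488 for Aif1l and 0.0153 for Eno1b. The ventricular libraries of Eno1b were at 15.4 to 19.6 against 29.8 to 31.6 CPM and its atrial ones at 19.0 to 23.9 against 23 to 25 CPM.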

How the results depend on the processing

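The 102 genes called between MBNL1+MBNL2 and +/–dox became 162 with DESeq2, 35 with only the 18 ventricular libraries, 38 with only the 6 libraries, 279 with a term for library name, and 28 with only the TC-56 library of +/–dox, an alternative chosen after seeing the data. Other limits gave 341 genes with no fold limit, 41 at 2-fold and 6 when the test itself was made against 1.5-fold. Leaving out each library gave 39 to 269. The cause was not tested, except that fewer libraries and other limits change the test by construction. Under every setting in which they were tested, the 102 genes kept their direction. They were called on these same libraries, so a kept direction is partly fixed by that choice. Of the 31 named genes called, 13 kept the call without each of the 6 libraries, and Clcn1, Igfbpl1, Nudt5, Rimkla and Vxn kept it in every setting. The 222 genes called against –dox became 366 with the library-name term and 130 to 322 with a library left out (130 without replicate 1 of –dox, 141 without replicate 2 or 3 of MBNL1+MBNL2). The 15 genes of the tissue difference became 42 with DESeq2, 8 without the low-count filter, 41 with the animal as a block (chosen after seeing the data, at an adjusted p below 0.05 and at least 1.5-fold, as for the 15) and 4 to 17 with a library left out. A replicate block gave 130 calls in place of 102, but replicate numbers are shared without a stated pairing and same-numbered deviations correlated at 0.018, -0.010 and 0.012. With 3 hearts in each cohort, a single +/–dox heart being female, smaller differences and low genes were not resolved at this depth.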
